A study of Mus musculus with 41 samples.

Results

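The 500 widest promoter domains of histone H3 lysine 18 lactylation (H3K18la) in mouse post-ischemia macrophages (PIM) are described here. The domains were selected on width alone. From the 31568 PIM H3K18la peaks on chromosomes 1 to 19, the 12389 that overlapped a promoter were kept, a promoter being 2000 bp up- and downstream of any annotated transcription start site (TSS), and the 500 widest of these were taken. They make up 4.04% of the promoter peaks and 16.9% of their bases.

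H3K18la is a lactate-derived acylation of a histone tail, and together with H3K27ac it is found at active promoters and enhancers, whereas H3K4me3 is typical of active promoters and H3K27me3 of Polycomb-repressed chromatin. Broad stretches of active marks that run from a promoter into the gene body are known from genes that define a cell type. Macrophages that enter injured muscle take up debris, release cytokines and later take part in repair, and they depend on transcription factors such as PU.1 (Spi1) and on signal-driven AP-1 and NF-kB factors.

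The study profiled these 4 histone post-translational modifications (hPTMs) by CUT&Tag, where a transposase tethered by the antibody tags the DNA next to the mark, in 8 mouse cell types and 41 samples. PIM were CD45+CD11b+F4/80+CD64+ cells sorted from calf muscle 2 days after ligation of the femoral artery in female C57BL/6 mice aged 8 to 12 weeks. PIM had 2 samples each for H3K18la, H3K4me3 and H3K27me3 and 1 for H3K27ac. The other cell types were unstimulated bone marrow-derived macrophages (BMDM, C57BL/6, cultured with M-CSF for 7 days, 1 sample per mark, no H3K4me3 list used here), gastrocnemius muscle (GAS, whole tissue of the same kind of mice as for PIM), primary myoblasts (MB, 1 sample per mark) and myotubes made from them (MT), white adipocytes from epididymal fat of AdipoCre-NuTRAP mice aged 10 weeks, whose nuclei carry an adipocyte-driven tag (ADIPO), and E14 stem cells, a single line, in serum-LIF (mESC-ser) or 2i-LIF (mESC-2i). All samples were untreated controls by their labels, PIM included, and no macrophages of uninjured muscle were among them.

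Samples of a group were pooled before peaks were called, so each of the 24 lists is a single set with no replicate error, and the tests below take a cell type as 1 value. The tests treat cell types as independent, although both stem cell cultures are a single line and MT were made from MB. Their p-values may therefore be too small. The lists differ in extent, from 22.3 Mb for BMDM H3K18la to 196 Mb for GAS H3K27ac, and a larger list covers more of any region. Whole cells were used for the stem cell cultures, and nuclei for the rest. In pooled cells, fewer cells with a mark and less of the mark per cell cannot be told apart. All 4 genes of the sort gate (Ptprc, Itgam, Adgre1 and Fcgr1) had a TSS in a PIM H3K18la peak, as had 19 of 20 macrophage identity genes. Of the markers of other cells, 4 of 11 neutrophil, 3 of 10 lymphocyte, 3 of 7 endothelial, 2 of 14 muscle and 2 of 5 adipocyte genes had one, and none of 6 dendritic cell, 7 fibroblast and 7 stem cell genes did. Of all protein-coding genes 28.4% did, so the neutrophil, lymphocyte, endothelial and adipocyte markers were not below the general share. A peak at a marker does not tell how many cells of that type were sorted along, and the part of such cells in the values below was not tested.

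The sequence under the highest H3K18la signal is shown for 9 domains, in windows of 121 bp on the plus strand of the mm10 genome. Capitals mark matches on either strand to 3 motifs of macrophage transcription factors, searched as TGANTCA for AP-1, GAGGAAGT for PU.1 and TTGCNNAA for C/EBP. The first 3 windows belong to the 3 widest domains and hold none of the motifs.

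Sfi1, chr11:3153250-3153370: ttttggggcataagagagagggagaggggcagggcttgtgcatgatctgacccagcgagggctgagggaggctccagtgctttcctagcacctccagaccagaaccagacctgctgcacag
Gm47921, chr14:25473116-25473236: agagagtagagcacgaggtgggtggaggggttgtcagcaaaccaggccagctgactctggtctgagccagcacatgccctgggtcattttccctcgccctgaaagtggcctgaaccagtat
Gm10715, chr9:3024461-3024581: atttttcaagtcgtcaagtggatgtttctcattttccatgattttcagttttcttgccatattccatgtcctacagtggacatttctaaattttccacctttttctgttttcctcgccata

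The next 3 belong to the widest domains that were at least 50% covered by BMDM H3K18la and under 10% covered by H3K18la of each of the 6 non-macrophage cell types. Of these, 1 holds a C/EBP match and 1 an AP-1 match.

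9930022D16Rik, chr11:109414904-109415024: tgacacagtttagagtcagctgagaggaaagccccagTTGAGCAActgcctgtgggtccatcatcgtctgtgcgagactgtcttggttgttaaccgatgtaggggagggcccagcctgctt
AU022793, chr15:39966791-39966911: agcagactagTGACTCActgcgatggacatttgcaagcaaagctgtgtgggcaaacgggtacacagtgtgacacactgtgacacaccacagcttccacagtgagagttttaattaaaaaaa
Bcl2a1b, chr9:89199215-89199335: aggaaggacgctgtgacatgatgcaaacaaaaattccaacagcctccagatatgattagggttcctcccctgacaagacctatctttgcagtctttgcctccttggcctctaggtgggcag

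The last 3 belong to the widest domains that were at least 50% covered by H3K18la in all 7 other cell types. The window at A630001O12Rik holds a C/EBP match and the one at Vmp1 an AP-1 match, with A at the position where the search allowed any base.

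A630001O12Rik, chr8:126832287-126832407: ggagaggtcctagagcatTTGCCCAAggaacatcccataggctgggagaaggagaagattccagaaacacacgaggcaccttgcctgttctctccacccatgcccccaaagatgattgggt
Vmp1, chr11:86587139-86587259: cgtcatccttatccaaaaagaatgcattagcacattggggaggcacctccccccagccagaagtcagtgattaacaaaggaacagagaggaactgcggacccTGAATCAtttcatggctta
Gm14321, chr2:167773028-167773148: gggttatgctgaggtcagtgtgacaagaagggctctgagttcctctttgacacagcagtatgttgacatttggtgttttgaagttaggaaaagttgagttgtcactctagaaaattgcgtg

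The AP-1 letters were more frequent at the signal maxima of the domains than at those of promoter peaks in general. They were found in 160 of the 500 windows, or 32% (95% Wilson interval 28.1 to 36.2%), while the background over all promoter peaks was 13.7%. The next 500 peaks by width had 24.8%. The PU.1 letters were in 30 windows (6%, interval 4.23 to 8.44%, background 3.91%), close to the 6.6% of the next 500. The C/EBP letters were in 32 windows (6.4%, interval 4.57 to 8.9%), an interval that includes the background of 5.22%. The position of the maximum is given as a description, since a wide peak leaves more room for a distant one. It was more than 1000 bp from any TSS in 318 domains (63.6%), against a background of 32.9% of all promoter peaks, with a median distance of 1688 bp in the domains and 506 bp in all promoter peaks. Within 1000 bp of a TSS the AP-1 letters were in 49 of 182 windows of the domains (26.9%) and in 10.4% of those of all promoter peaks, and beyond 1000 bp in 111 of 318 (34.9%) and 20.5%. The next 500 by width lay between, with 19.3% and 30.1%. These intervals cover counting error only, and a match is a run of letters, not a measured binding site.

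The domains ranged from 6587 to 30956 bp in width, with a median of 8381 bp (quartiles 7354 and 10447.25 bp), and all promoter peaks had a median of 1624 bp. The boundary fell on a tie at 6587 bp, which the larger total signal decided. The last domains inside it were Itgax, the CD11c integrin chain, at 6590 bp and a peak beside the transcript Gm49226 at 6587 bp, and the first peaks outside were 6587 bp beside Gm31718 and 6575 bp beside Gm45155. The median highest signal was 268.5 in the domains, 182.5 in the next 500 and 70 in all promoter peaks, in units of unscaled fragment coverage, which are given as a description since width and signal come from the same list. The curve of width against rank has no step at rank 500.

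**Figure D1:**
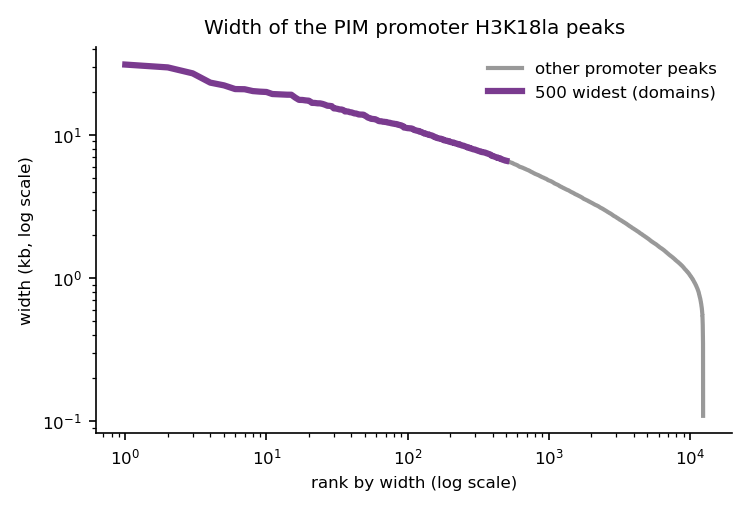
Width in kb of each of the 12389 PIM promoter H3K18la peaks (vertical, log scale) against its rank by width (horizontal, log scale), with the 500 widest in purple and the others in grey. The widths fall smoothly from 30956 bp through 6587 bp at rank 500, with no break between domains and other peaks.

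Most domains held a TSS of 1 protein-coding gene. A TSS of exactly 1 protein-coding gene lay inside 305 domains (and inside 5497 of all 12389 promoter peaks), TSSs of several such genes inside 21 (4.2%, against 4.98% of all), and none inside 174 (34.8%, against 50.6%), of which 112 held only TSSs of other transcripts and 62 overlapped the promoter window without holding a TSS. In all, 341 protein-coding genes had a TSS in a domain. Of the domains' bases, 47.2% lay within 2000 bp of a TSS, 34.5% in introns beyond that, 3.76% in exons beyond that and 14.6% between genes. In the 11889 other promoter peaks 80.3% lay within 2000 bp of a TSS and 12.6% in introns, a contrast that the width rule itself brings about. The domains had a median GC content of 48.2% and a median CpG observed over expected ratio of 0.223, against 49.7% and 0.336 in the other promoter peaks. The next 500 by width were close to the domains, with 48.4% and 0.237.

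The position of the domains about the TSS is given as a description, since it comes from the ends that the width rule used and is counted from the outermost TSS, which lengthens the downstream arm where a gene has several. In the 305 domains with 1 protein-coding gene, the median reach was 3074 bp upstream and 5563 bp downstream of the outermost TSS, and 207 of them (67.9%) reached further downstream than upstream. Among 5192 other promoter peaks with 1 protein-coding gene, 52.9% did. The downstream arm covered a median of 21% of the gene, and 21 domains ran past the gene's annotated end. The regions were chosen for the width of PIM H3K18la, so only the other lists are described around these 305 TSSs. PIM H3K4me3 covered 85.6% of positions 125 bp downstream, 80.3% at 2125 bp and 50.2% at 5125 bp. PIM H3K27ac covered 73.8%, 47.9% and 28.5% at the same distances, so its share fell faster. The H3K27ac list has narrower peaks (median 959 bp, against 2131 bp for H3K4me3), and the part of this in the fall was not tested. Upstream, at 2125 bp, H3K4me3 covered 37.7% and H3K27ac 20.7%. PIM H3K27me3 covered 3.61 to 6.89% at these distances. BMDM H3K18la covered 59.3% at 125 bp, 37% at 2125 bp and 20.3% at 5125 bp downstream, and GAS H3K18la 58.7%, 49.5% and 40.7%.

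**Figure D2:**
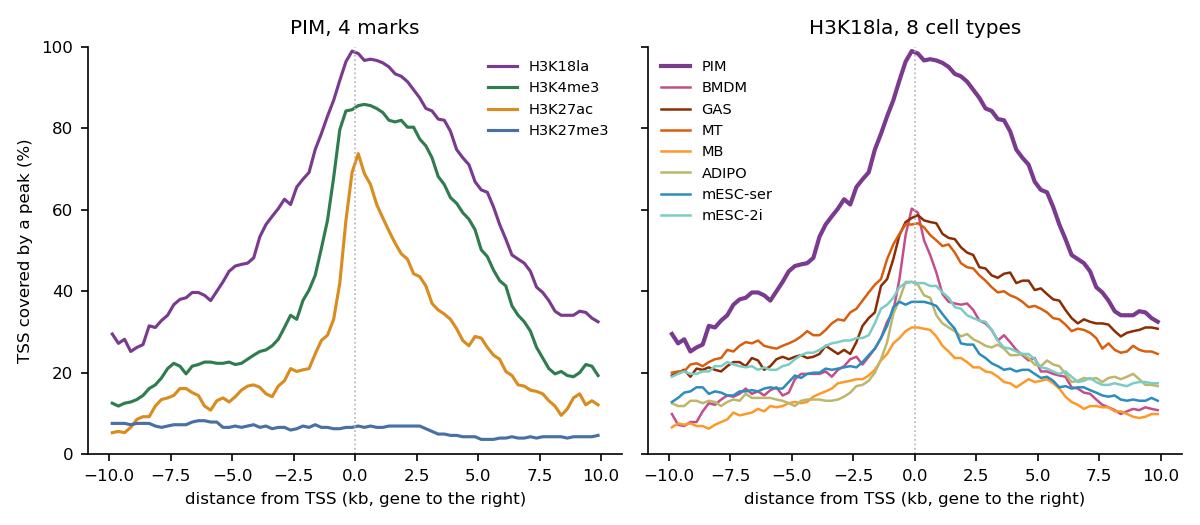
Share of 305 TSSs (vertical, %) with a peak of the named list at each distance (horizontal, kb, gene to the right, steps of 250 bp), for the 4 marks of PIM on the left and for H3K18la of the 8 cell types on the right. The PIM H3K18la curve is high by selection, PIM H3K27ac falls from 73.8% at 125 bp to 28.5% at 5125 bp downstream, and PIM H3K4me3 is higher 5125 bp downstream (50.2%) than 5125 bp upstream (22.6%), whereas mESC-2i H3K18la is about level there (21.3% and 22%).

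Some of the widest domains stand apart from the rest. Domain 1, of 30956 bp (chr11:3149477-3180432), and domain 16, of 18191 bp (chr11:3130717-3148907), both lie over Sfi1, which encodes a centrosomal protein, and are neighbours of a domain at the pseudogene Pisd-ps1. Domain 1 was at least 50% covered by 18 of the 23 other lists and domain 16 by 21, H3K27me3 lists of PIM (97.9% and 100% covered) and of GAS (97.9% and 100%) among them. Domain 3, of 26878 bp (chr9:3011462-3038339), holds 7 predicted genes from Gm10715 to Gm17535, consists of repeat-masked letters over 96% of its length and reached a coverage of 12961, while no other domain exceeded 1259. Reads of such repeated sequence cannot be placed with certainty. In all, 16 domains were at least 50% covered by 15 or more of the 23 lists or were over 50% repeat, and the mean differences were also computed without them (1.72 points for H3K18la, -5.37 for H3K27ac, -20.3 for H3K4me3 and 0.249 for H3K27me3, none past the test). The 16 include Neat1, a paraspeckle RNA, Rara, the retinoic acid receptor alpha, Kdm6b, an H3K27 demethylase, and Zc3h12a, an RNase that degrades cytokine transcripts.

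The other domains among the 10 widest lie at genes of varied function. Slc37a2, a sugar-phosphate transporter of the endoplasmic reticulum in macrophages, had 23149 bp, of which H3K18la covered 22.2% in BMDM, 24.6% in MT, 22.7% in mESC-2i, 8.97% in MB and none in the other 3 cell types. Ptpre, a receptor-type tyrosine phosphatase, had 19914 bp, covered 31.9% in BMDM, 18.1% in GAS and not at all in the other 5. No other cell type covered 50% of either domain. Lgals3, which encodes galectin-3, a sugar-binding protein abundant in macrophages, had 20875 bp with coverage of 62% in BMDM, 56.9% in MB, 70.3% in MT, 22.6% in GAS, 38.3% in ADIPO, 45.8% in mESC-ser and 59.6% in mESC-2i. Dhrs3, a retinaldehyde reductase, and Vps13d, a lipid transfer protein, lie close together on chromosome 4 with domains of 22153 and 20211 bp. GAS covered 97.8% and 66.4% of them, ADIPO 96.7% and 79.2%, and BMDM 35.7% and 41%. The domain of 29575 bp at Gm47921, within reach of the Zmiz1 promoter, and that of 20023 bp at 2010111I01Rik were covered 100% in GAS and 97.8% and 100% in MT. The domain at Hjurp, a histone chaperone of centromeres, and Mroh2a had a highest signal of 78, the lowest of the 10, and was covered 45.2% by PIM H3K27me3 and 51.4% by PIM H3K4me3.

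The gene lists were put together with earlier results of these data known, so their shares in domains are descriptions and not independent evidence. Of 22 myeloid transcription factors with a TSS in any PIM H3K18la peak, 9 had one in a domain, or 40.9%, while the background over all 5901 protein-coding genes with a TSS in a peak was 5.78%. Klf6 had the widest, of 19275 bp, covered by H3K18la between 45% in mESC-ser and 94.1% in MT. Spi1, which encodes PU.1, had 12171 bp, covered 66.9% by H3K18la in BMDM, 83.8% in GAS, 58.4% in MT, 31.7% in ADIPO and not at all in MB, mESC-ser and mESC-2i, and 73.2% by mESC-2i H3K27me3. The domains of Irf5, an interferon regulatory factor (8752 bp), and Zeb2 (8210 bp) were covered 69.5% and 75.6% in BMDM. Irf5 was also covered 61.2% in mESC-2i, and Zeb2 more than in BMDM in GAS (100%), MB (98.3%), ADIPO (98.1%) and MT (94.2%). Runx1, a factor of blood cell formation, had 7420 bp, covered 68.5% in BMDM, 70.1% in GAS, 75.1% in MT, 59.5% in MB, 21.1% in ADIPO and not at all in either stem cell culture. The domain of Ikzf1, the lymphoid and myeloid factor Ikaros, of 7078 bp, was covered 19.9% in BMDM and not at all in the other 6, with PIM H3K4me3 over 97.2% of it. Bhlhe40, Rara and Tfeb, a regulator of lysosomal genes, completed the list.

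Immediate early genes are switched on within minutes of a signal. Of 17 AP-1 and immediate early genes with a TSS in a peak, 4 lay in domains (23.5%). These were Zfp36, an RNA-binding protein that destabilises cytokine transcripts (14893 bp), Junb (8735 bp), the MAP kinase phosphatase Dusp1 (7721 bp) and Atf3 (6881 bp). H3K18la covered at least 50% of Zfp36, Junb and Dusp1 in 6 and of Atf3 in 5 of the 7 other cell types. Atf3 also carried PIM H3K27me3 over 61.8% of its domain together with PIM H3K4me3 over 99.3%. Of 19 genes of the NF-kB pathway, 3 lay in domains (15.8%): Tnfaip2 (16582 bp), the ubiquitin-editing inhibitor Tnfaip3 (11983 bp) and the NF-kB inhibitor Nfkbia (8627 bp). BMDM H3K18la covered 59.8%, 33.3% and 14.7% of them and BMDM H3K27ac 95.2%, 80.3% and 56.4%. H3K18la covered more of them elsewhere, 100%, 67% and 94.8% in GAS, with 70.7% of Tnfaip3 in ADIPO and 100% of Nfkbia in mESC-2i.

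Domains of macrophage genes ranged from covered by no other H3K18la list to covered more in other cell types than in BMDM. Of 19 macrophage identity genes in peaks, 6 were in domains (31.6%), namely Emilin2, Clec4d, Laptm5, Mpeg1, Ccr2 and Csf1r. Csf1r, the receptor of macrophage colony-stimulating factor, had 7015 bp, covered 66.5% in BMDM, 34.6% in GAS, 25.9% in MT and not at all in the other 4. Laptm5, a lysosomal membrane protein of blood cells (10648 bp), was covered 100% in mESC-2i, 72.8% in mESC-ser, 36.5% in BMDM and not in the other 4. Mpeg1, which encodes the pore-forming perforin-2 (8089 bp), was covered 78.3% in GAS and 58.5% in BMDM, and Emilin2 (12659 bp) 60.2% in MT and 14.6% in BMDM. The domain of Ccr2, a receptor that draws monocytes to injured tissue, had 7693 bp. It was covered by H3K18la of no other cell type and not by BMDM H3K27ac, while PIM H3K4me3 covered 98.3% and PIM H3K27ac 23.5%. Of 17 chemokine ligand and receptor genes in peaks, 3 lay in domains (17.6%), Ccr2 and Cxcr4 (6616 bp) among them, and no chemokine ligand of the list lay in a domain. Of 16 Fc and lectin receptors, 2 did (12.5%): Clec4d, a receptor of mycobacterial glycolipids, with 11015 bp, and the inhibitory receptor Fcgr2b with 6754 bp. Clec4d was covered 79.2% in BMDM, 33.5% in MB and not in the other 5. Of 14 Src family and immune signalling genes, 6 lay in domains (42.9%): the kinases Lyn, Syk and Fgr, the phosphatase Inpp5d and the exchange factors Dock2 and Dock10. BMDM covered 90% of Lyn, 84.8% of Syk, 82.3% of Inpp5d and 53.1% of Dock10, but 21.1% of Dock2 and 14.8% of Fgr. Fgr was covered 100% in both stem cell cultures.

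Of 18 genes of actin, adhesion and migration in peaks, 5 were in domains (27.8%), led by Lcp1, the actin bundler L-plastin of white blood cells, with 19066 bp. Lcp1 was covered 44.3% in BMDM, 10.5% in mESC-ser, 12.3% in mESC-2i and not in the other 4. The others were Capg, Cd44, Plek and Lsp1. Of 13 lysosomal genes, 4 were in domains (30.8%), the proteases Ctsd (17311 bp) and Ctsb (15023 bp), the saposin precursor Psap (13241 bp) and the cholesterol carrier Npc2 (7597 bp). Ctsd was covered 61% in BMDM, 82.8% in GAS, 88% in MT, 19.9% in MB, 14.9% in ADIPO, 48.1% in mESC-ser and 57.3% in mESC-2i. Repair and resolution genes gave 4 of 16 (25%), with Hmox1, which degrades heme, at 14525 bp, the IL-4 receptor chain Il4ra at 12437 bp, Tgfbi at 9407 bp and the anti-inflammatory cytokine Il10 at 7590 bp. Il10 was covered 46.7% by BMDM H3K18la and by no other H3K18la list. Hypoxia and glycolysis genes gave 2 of 14 (14.3%), Pfkfb4 (9127 bp) and the pyruvate kinase Pkm (8863 bp). Of microRNA host transcripts 3 of 5 lay in domains, Mir21a inside that of Vmp1, Mir22hg and Mir142hg. Of all 2139 genes that are not protein-coding and have a TSS in a peak, 10.2% had one in a domain.

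Some lists had few or no members in the domains. None of 13 interferon response genes in peaks lay in a domain (2 did with promoters of protein-coding genes alone), and none of the 4 sort gate genes did, whose promoter peaks ranked 996 (Ptprc, 4813 bp), 1690 (Fcgr1, 3679 bp), 3314 (Adgre1, 2493 bp) and 3733 (Itgam, 2305 bp) by width. Of 7 housekeeping genes in peaks 1 did. Of the markers of other cells, the B cell gene Ms4a1 did (10089 bp, in the Ms4a cluster, PIM H3K4me3 0%), and none of 4 neutrophil, 3 endothelial, 2 muscle or 2 adipocyte genes in peaks did. At the overall share of 5.78%, lists this small would hold about 1 member or none, so these counts cannot show a difference from it.

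**Figure D3:**
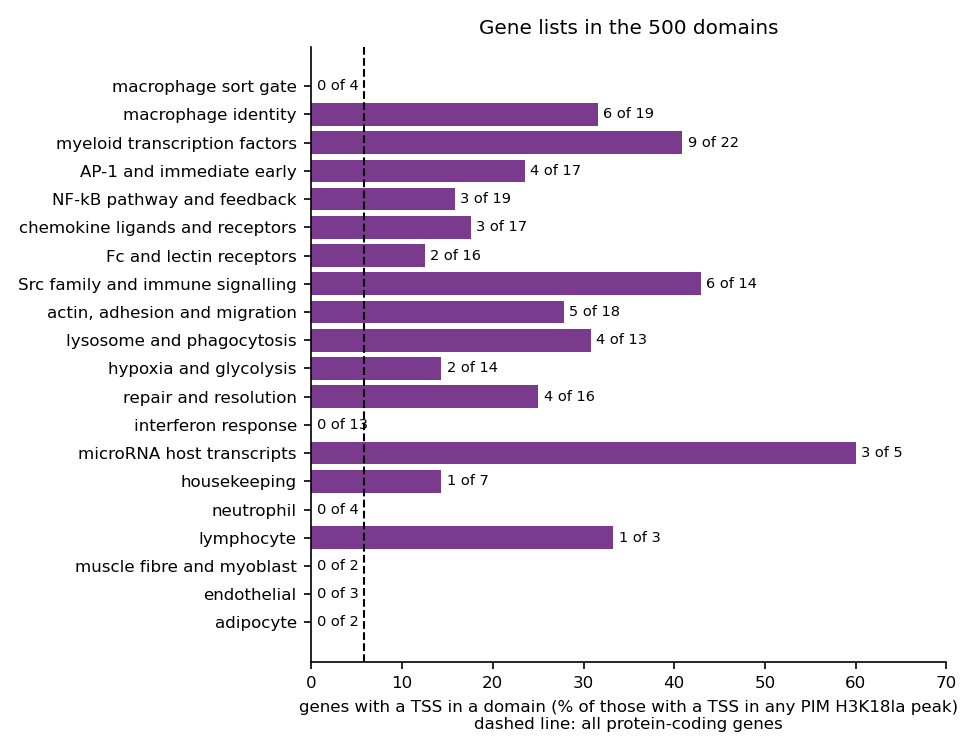
Share of the genes with a TSS in any PIM H3K18la peak that have one in a domain (horizontal, %) for each gene list, with the counts beside the bars. The dashed line is the 5.78% of all protein-coding genes (10.2% for other genes, the background of the microRNA hosts), and the bars for microRNA host transcripts (3 of 5), immune signalling (6 of 14) and myeloid transcription factors (9 of 22) reach furthest to the right.

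Within PIM, the other active marks covered parts of the domains. PIM H3K4me3 covered 64.7% of their bases and PIM H3K27ac 42.4%. Both lay on 37.2% of the bases, H3K4me3 without H3K27ac on 27.5%, H3K27ac without H3K4me3 on 5.19% and neither on 30.1%. A domain contained a median of 3 separate H3K27ac peaks and 1 H3K4me3 peak, and at least 2 H3K27ac peaks were found in 424 domains, while exactly 1 H3K4me3 peak was found in 311. Wide regions hold more peaks, so these counts are a description. H3K4me3 covered at least 50% of 349 domains (69.8%, 95% Wilson interval 65.6 to 73.7%, background over all PIM promoter peaks 75.4%), and H3K27ac of 160 (32%, interval 28.1 to 36.2%, background 42.9%). Neither share exceeds its background, but a narrow peak falls entirely inside or outside a list more easily, and most promoter peaks are narrower. Of the next 500 by width, H3K4me3 covered at least 50% of 369 and H3K27ac of 149. With the 500 of largest total signal in place of the widest, both shares lay above these backgrounds. No H3K27ac peak touched 12 domains and no H3K4me3 peak 22. At least 50% coverage by both marks without H3K27me3 was found in 148 domains (29.6%), against 38.4% of all promoter peaks.

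PIM H3K27me3 covered at least 50% of 24 domains (4.8%, interval 3.25 to 7.04%, background 7.37%) and did not touch 454. The 8 with the largest share were covered by 98.1% or more. They were the second Sfi1 domain, Oacyl, Tekt3, a gene of sperm flagella, Flrt2, Cd81, a tetraspanin, and the transcripts CT030636.1, Gm45206 and Gm34590. Their other marks differed. Flrt2 carried H3K4me3 in PIM over 100%, in GAS over 94.4% and in mESC-2i over 89.9%. Tekt3 and CT030636.1 had no PIM H3K4me3 and 6.15% and 5.5% of PIM H3K27ac. The domain at Klk1b11, a kallikrein, had 78.8% H3K27me3 and neither active mark.

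H3K18la of the other cell types was compared between the domains and the other PIM promoter peaks to see whether the width in PIM goes with coverage elsewhere. As deposited, the lists gave the largest difference for BMDM, the other macrophage, while with reduced lists MT (20.2 points) exceeded BMDM (17.4). Its H3K18la peaks covered 41.4% of the domains' bases and 24% of those of the other promoter peaks, although its list is the smallest. MB (26.4% against 15.6%), MT (51.6% against 44.4%) and GAS (49.8% against 43.7%) were also higher in the domains, and ADIPO (29.7% against 37.4%), mESC-ser (26.6% against 30.8%) and mESC-2i (31.3% against 38.6%) were lower. The mean difference was 3.17 ± 9.75 percentage points (SD, n = 7 cell types), higher in 4 and lower in 3, which did not pass an exact permutation test that flips signs over cell types (two-sided p = 0.453, smallest possible 0.0156, Benjamini-Hochberg adjusted p = 0.453 over 4 marks). It was 6.75 ± 9.24 in the 5 types processed as nuclei (exact p = 0.25, smallest possible 0.0625) and -5.78 in the 2 whole-cell types. As the whole-cell types are the stem cell cultures, preparation and cell type cannot be told apart here. With each list reduced to the bases of the smallest, the difference was above 0 in all 7 and averaged 11.8 points (exact permutation p = 0.0156, the smallest that 7 cell types allow, adjusted 0.0625 over the 4 marks), so its size depended on the extent of the lists. This p-value also rests on related cell types, MB with MT and mESC-ser with mESC-2i. Against the next 500 peaks by width the H3K18la difference averaged -0.0164 points, and BMDM covered 37.9% of the bases of those. The difference in BMDM was then 3.51 points, so peaks just below the width limit were covered almost as much. For MB it turned to -1.35 points (26.4% against 27.7%).

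BMDM H3K18la covered at least 50% of 184 domains (36.8%, interval 32.7 to 41.1%), against a background of 20.5% of all PIM promoter peaks. MB did so for 129 (25.8%, background 13.7%), MT for 268 (53.6%, background 46.3%) and GAS for 246 (49.2%, background 44.6%). ADIPO reached 122 (24.4%, background 42.7%), mESC-2i 162 (32.4%, background 40.6%) and mESC-ser 121 (24.2%, background 32.2%). Among the next 500 peaks by width, BMDM covered 154 to this extent, MB 150, MT 258 and GAS 248. ADIPO did so for 142 of those, mESC-2i for 177 and mESC-ser for 144. For MB the count was thus higher in the next 500 than in the domains. BMDM H3K18la did not touch 39 domains, fewer than any other H3K18la list, and entered 331 domains with at least 2 separate peaks. A wide region is touched by some peak more easily than a narrow one, so counts of touched domains are not compared with other promoter peaks.

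Of the domains, 84 were covered to 50% in no other cell type, 108 in 1, 92 in 2, 77 in 3, 52 in 4, 37 in 5, 34 in 6 and 16 in all 7. The shares of 16.8% for none and 3.2% for all 7 compare with 18% and 1.36% (background) of all promoter peaks. Domains near-absent elsewhere, under 10% covered in all 7, numbered 9 (1.8%, background 11.8%), and domains of both macrophages but no other type numbered 15 (3%, background 3.13%). A narrow peak falls entirely outside or inside another list more easily than a wide one, so these shares are not independent of width.

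The 15 domains of PIM and BMDM had a median of 76.6% coverage by BMDM H3K27ac. They include Nlrp3, the inflammasome sensor (8055 bp, 69.1% BMDM H3K18la, 94.5% BMDM H3K27ac), Evl, an actin polymerisation factor (8961 bp, 71.3% and 70.5%), the small GTPase gene Arf2 (8022 bp, 50.9% and 81.4%) and Bcl2a1b, an anti-apoptotic gene with near-identical copies among which reads may be split (10070 bp, 70.1% and 84%). None of the 4 had H3K18la in the other 6 cell types. The widest lay at the gene 9930022D16Rik (11132 bp, 54.1% and 55.5%) and the noncoding AU022793 (10200 bp, 55.1% and 76.1%). The others among the 8 widest were at 1700016K05Rik and Gm43121. H3K27me3 of other cell types covered Gm43121 (91.6%), 1700016K05Rik (90.1%) and Nlrp3 (52.5%) in mESC-2i, AU022793 (91%) in MT and Bcl2a1b (76%) in GAS, values that were not compared with those of other domains.

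The 9 domains near-absent elsewhere had a median of 32.8% PIM H3K4me3 and 6.15% PIM H3K27ac coverage. Besides Ccr2 they include Havcr2, the immune checkpoint receptor TIM-3 (11489 bp, PIM H3K4me3 68.8%, PIM H3K27ac 10.8%), and Selplg, the selectin ligand PSGL-1 (7911 bp, 61.9% and 45.4%). Rubcnl (7367 bp), an autophagy regulator, had 57.8% PIM H3K4me3 and no H3K27ac, and was covered 100% by H3K27me3 in both stem cell cultures. Dglucy, Klk1b11, Tekt3 and Serpina3e-ps completed the 8 widest. Of these, Serpina3e-ps was touched by none of the 23 other lists.

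The 16 domains shared by all cell types had medians of 88.9% PIM H3K4me3 and 69.2% PIM H3K27ac coverage and of 0% PIM H3K27me3. Vmp1, an autophagy gene that hosts Mir21a (13838 bp), was covered 71.9 to 100% by H3K18la in the 7 other types. Rapgef1, an exchange factor for small GTPases (11124 bp), was covered 50.4% in BMDM and 82% or more elsewhere. Neat1 (10538 bp) was covered 70% in BMDM and 97.8% or more in the others. Other wide domains of this pattern lay beside Irf2bp2, a transcriptional corepressor, and at the transcripts A630001O12Rik, Gm14321 and Gm38140. BMDM had the lowest coverage of the 7 at Rapgef1 and Neat1, and its 500 widest promoter peaks are the narrowest among the H3K18la lists.

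**Figure D4:**
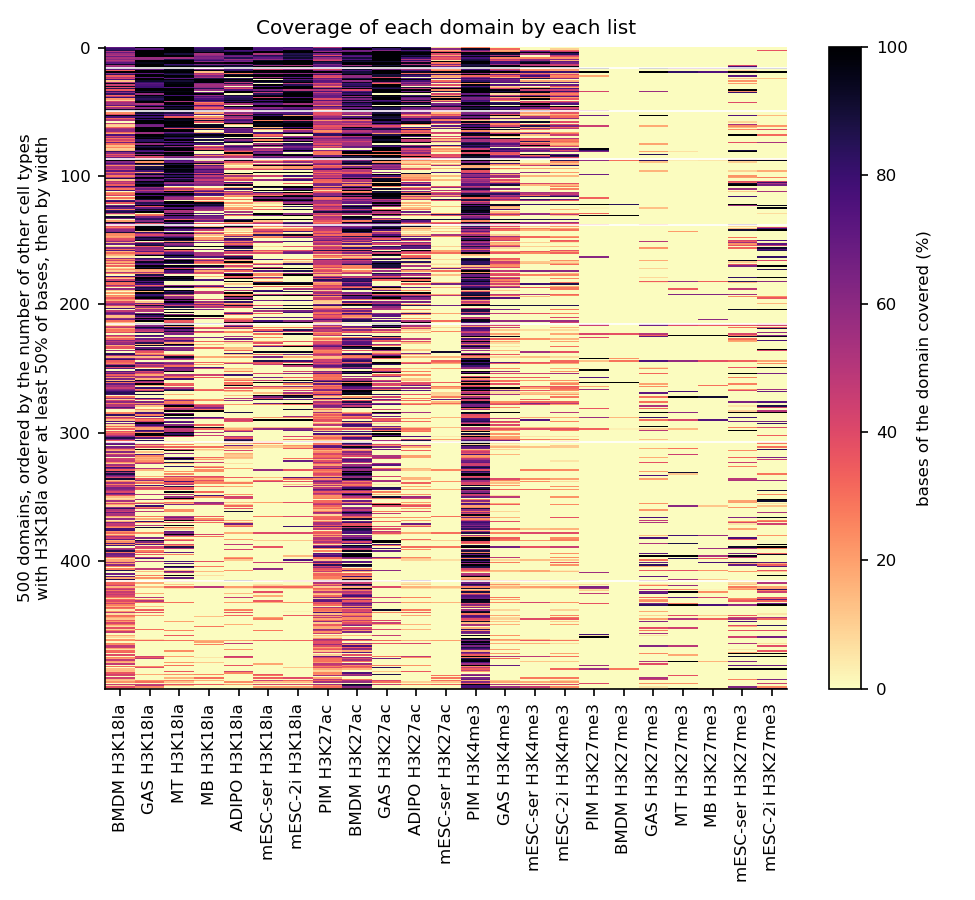
Share of bases of each of the 500 domains (rows) covered by each of the 23 other lists (columns), from 0% (pale) to 100% (black), with white lines between domains covered to at least 50% by H3K18la in 7, 6, 5, 4, 3, 2, 1 and 0 other cell types from top to bottom. The PIM H3K4me3 column (64.7% of bases overall) stays dark in many domains down to the bottom, and the PIM H3K27me3 column is empty in 454 of 500.

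H3K27ac and H3K4me3 of other cell types followed different courses. BMDM H3K27ac covered 56.6% of the domains' bases and 49.2% of those of the other promoter peaks, and PIM H3K27ac 42.4% and 40.3%, whereas GAS (45.1% against 50.8%), ADIPO (26% against 36.7%) and mESC-ser (11.9% against 24.5%) were lower in the domains. The mean difference was -3.89 ± 8.51 points (SD over 5 cell types). By the same exact test p was 0.375 (adjusted 0.453, smallest possible 0.0625). Its sign turned with smaller lists (5.15 points with 5000 peaks per list). In counts, BMDM H3K27ac covered at least 50% of 305 domains (61%, background 52%), GAS 222 (44.4%, background 53.2%), ADIPO 113 (22.6%, background 43.1%) and mESC-ser 42 (8.4%, background 30.1%). Of the next 500 by width the counts were 308 in BMDM, 246 in GAS, 135 in ADIPO and 48 in mESC-ser. The signs of single cell types were not stable. With promoters of protein-coding genes alone PIM H3K27ac was lower in the domains (-1.8 points), against the next 500 BMDM was (-1.46), and with reduced lists GAS was higher (8.2).

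H3K4me3 covered a smaller share of the domains than of the other promoter peaks in all 4 cell types. The values were 64.7% against 71% in PIM, 22.6% against 46.1% in GAS, 13.5% against 35.3% in mESC-ser and 14.6% against 36.9% in mESC-2i. The mean difference was -18.5 ± 8.15 points (SD over 4 cell types). The exact test gave p = 0.125 (adjusted 0.453), and 4 cell types allow no smaller value. Against the next 500 by width the mean was -5.02 points, also lower in all 4. With 5000 peaks per list it was -7.33 and above 0 in PIM (4.72). At least 50% of the domain was covered in 85 domains in GAS (17%, background 54.3%), 60 in mESC-ser (12%, background 42%) and 37 in mESC-2i (7.4%, background 44.2%). Of the next 500 by width the counts were 138 in GAS, 83 in mESC-ser and 71 in mESC-2i. As 47.2% of the domains' bases and 80.3% of those of the other promoter peaks lie within 2000 bp of a TSS, the distance to the TSS moved with this result, and its part in it was not tested.

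H3K27me3 covered little of the domains in differentiated cells. The shares were 0.908% in BMDM, 2.79% in MB, 5.1% in MT, 5.7% in PIM and 8.39% in GAS, and they were higher in the stem cells, 13.3% in mESC-ser and 15.5% in mESC-2i. The difference from the other promoter peaks averaged 1.12 ± 2.15 points (SD over 7 cell types, exact p = 0.234, adjusted 0.453), with 5.04 points in mESC-2i and -1.36 in BMDM at the ends. At least 50% coverage was found in 3 domains in BMDM (background 2.57%), 12 in MB (background 2.1%), 23 in MT (background 4.19%), 34 in GAS (background 5.59%), 53 in mESC-ser (10.6%, background 11.9%) and 66 in mESC-2i (13.2%, background 9.69%).

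**Figure D5:**
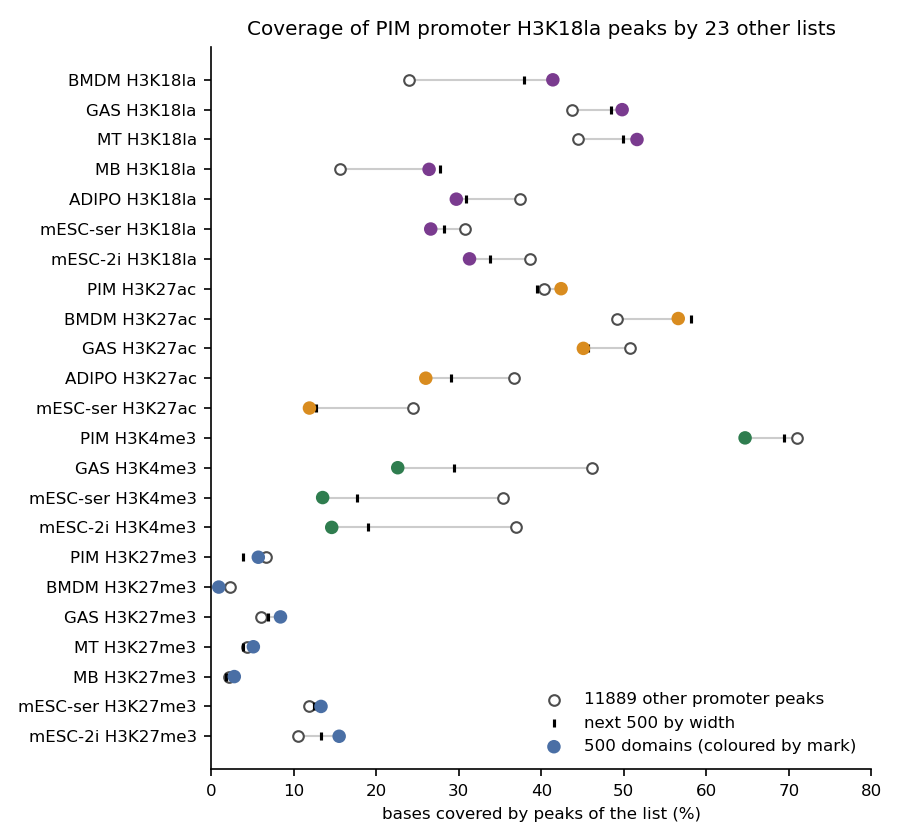
Share of bases covered by each of 23 lists (horizontal, %) in the 500 domains (filled, coloured by mark), the next 500 peaks by width (ticks) and the 11889 other promoter peaks (open circles). BMDM H3K18la lies at 41.4% in the domains and 24% in the other peaks, the 3 H3K4me3 lists outside PIM lie far to the left of their open circles, and the ticks lie near the filled points in most lists.

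The widest promoter peaks of the other lists were compared with the domains. When the 500 widest promoter peaks of each list were taken by the same rule, 173 of the 500 PIM domains (34.6%) overlapped those of BMDM H3K18la, and 189 of the 500 BMDM domains (37.8%) overlapped PIM domains. Of all PIM promoter peaks 4.24% overlapped the BMDM set and of the next 500 by width 20.8%, and a wide peak overlaps more easily. For BMDM H3K27ac the numbers were 202 (40.4%) and 204 (40.8%), for PIM H3K4me3 172 (34.4%) and 168 (33.6%) and for PIM H3K27ac 129 (25.8%) and 140 (28%). Of all PIM promoter peaks 5.47%, 5.28% and 5.17% overlapped these 3 sets, and of the next 500 by width 21.2%, 13% and 14%. The other H3K18la lists shared between 36 (7.2%, mESC-2i) and 86 (17.2%, MT) PIM domains, against 4.25% and 3.18% of all PIM promoter peaks, although their widest peaks are wider, with medians of 7339 bp in MB to 27668 bp in mESC-2i against 3310 bp in BMDM.

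With gaps of up to 50000 bp joined, 105 domains fell into 49 groups of 2 to 4, and 63 of the next 500 peaks by width into 30 groups. Many groups were separate peaks at 1 gene. The groups of 4 were at Atf3 and at Sfi1. Groups of 3 were found at Dusp1, at Pfkfb4 and at Tpst2, and pairs at Klf6, Cd36, a scavenger receptor, Mcl1, an anti-apoptotic gene, Cflar, Zeb2 and Igf2r among others, and over Malat1 and Neat1. Every chromosome from 1 to 19 held between 10 and 49 domains, and the share of its promoter peaks that were domains ranged from 2.4% on chromosome 3 to 5.27% on chromosome 1.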

How the data were processed

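H3K18la, H3K27ac, H3K4me3 and H3K27me3 were profiled by CUT&Tag. According to the submitters' processing notes the authors used Trim Galore 0.6.6, Bowtie2 2.4.4, SAMtools 1.13, bedtools 2.30 and SEACR 1.3 with build mm10, and by the methods replicates were combined before peaks were called in stringent mode (top 1%). Each deposited list gives the total and maximum signal (fragment coverage) of a peak in whole numbers that were not scaled for depth, so signal was not compared between lists. The sequencing depth of the samples is not given in these lists. The paper's supplement gives read numbers for each sample, which were not used here. A peak's width can depend on depth and on how the caller joins neighbouring blocks. Stem cell lists that name no medium were taken as mESC-ser from the sample descriptions.

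Promoters were 2000 bp either side of each TSS of 141767 GENCODE vM21 transcripts (55450 genes). The 500 widest PIM promoter peaks were compared with the 11889 others by the share of bases covered by each of 23 lists, with a two-sided exact permutation test (signs flipped over cell types) and Benjamini-Hochberg adjustment over 4 marks. Sequences were read from GRCm38.p6, and no peak ended beyond a chromosome of it. Intervals are 95% Wilson intervals. Named genes have a TSS inside a domain and belong to the 10 widest domains, the 8 widest of each coverage pattern, the 8 with the most PIM H3K27me3 or, up to 8 each, the gene lists, and transcripts name domains without such genes. Gene pairs and loci named for their neighbourhood, for lying in many lists or at the width boundary, Klk1b11 for H3K27me3, and Tfeb as the ninth of its list, were chosen after their values were seen, as was the 1000 bp split of the motif counts. The members and lists were chosen with earlier results of these data known. Of the list genes, 11 had no annotated TSS on these chromosomes. Python 3.11.15, numpy 2.4.6, pandas 2.3.3, scipy 1.17.1 and matplotlib 3.10.9 were used, and the overlap code was tested on simulated data beside bedtools 2.31.1. Some members of these groups are not reported here.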

Additional observations from a re-analysis of the deposited data

Results flagged for a closer look

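The difference in PIM H3K4me3 coverage between the domains and the other promoter peaks, -6.31 percentage points, stood apart from that of the other 3 cell types with the mark, which were -23.5 in GAS, -21.8 in mESC-ser and -22.3 in mESC-2i. Its gap to the nearest of them was 0.901 of the whole range, above the critical value of 0.829 for 4 values. PIM is the cell type whose H3K18la list defined the regions, and it is the sole macrophage among the 4. The differences of the other 3 marks held no value this far from the rest. Against the next 500 by width in place of all other promoter peaks PIM did not stand apart, with -4.62 points beside -6.81 in GAS, -4.25 in mESC-ser and -4.4 in mESC-2i. Chance marks about 1 in 20 such groups, and 4 were examined.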

How the results depend on the processing

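No paired analysis was possible because the replicates were pooled before peak calling, and for the same reason no replicate could be left out. No mean difference passed the threshold under any alternative (smallest adjusted exact p 0.0625), which says nothing of stability, since 4 or 5 cell types cannot reach it and 7 give at least 0.0156 before adjustment. Leaving out each cell type in turn gave mean differences of 0.787 (without BMDM) to 4.99 points (without ADIPO) for H3K18la (1.9 without MB, 4.91 without mESC-2i), -6.72 (without BMDM) to -1.71 (without mESC-ser, -2.18 without ADIPO) for H3K27ac, -22.5 to -16.8 for H3K4me3 and 0.464 (without mESC-2i) to 1.53 for H3K27me3. The H3K4me3 mean stayed below 0 throughout (-31.2 to -5.02). The H3K18la mean turned to -0.0164 against the next 500 by width, and the H3K27me3 mean was 0 for medians over regions. With 5000 peaks per list the H3K18la differences were above 0 in every cell type, from 3.91 in mESC-ser to 24.3 in MT. With protein-coding TSSs alone they ranged from -12.4 in ADIPO to 17.6 in BMDM. The H3K27ac mean turned to 0.107 with the 500 of largest total signal, 5.15 with 5000 peaks per list and 1.68 with lists reduced to the smallest of their mark. The H3K18la differences of BMDM (3.51 to 39.6), GAS (1.42 to 49.8) and MT (1.69 to 50.8) were above 0 in all of these, and MT exceeded BMDM with 5000 peaks per list, reduced lists and medians. For BMDM H3K18la and the 3 PIM lists, shares of domains covered to 50% moved beyond their interval as follows, and of 443 other recomputed values 126 moved. Protein-coding TSSs alone gave 36.6% for PIM H3K27ac and 85% for PIM H3K4me3. The 500 of largest total signal gave 50.8% for BMDM H3K18la, 44% for PIM H3K27ac and 77.4% for PIM H3K4me3, and 5000 peaks per list 24.8%, 14.2% and 49.4%. Lists reduced to the smallest gave 58.4% for PIM H3K4me3. At 25% coverage, BMDM H3K18la, PIM H3K27ac, PIM H3K4me3 and PIM H3K27me3 covered 69.2%, 79.4%, 87.6% and 7.6% of domains, and at 75% coverage 11.2%, 5.8%, 44.8% and 2.2%. The last 2 follow from the limits set, and the cause of the other changes was not tested. Of 207 recomputed counts of list genes, 184 stayed within 1.5 times. Leaving out the 16 domains in many lists or of repeats was chosen after seeing the data. Pooled lists without read numbers limit the precision of every value, and a mark not called in a list may be present below its threshold.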
